A study of Mus musculus with 6 samples.

Results

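Hepcidin, its paralog and 8 genes of iron sensing, transport and storage were followed through 6 mouse liver RNA sequencing libraries. The 10 genes, Hamp, Hamp2, Tfrc, Tfr2, Trf, Slc40a1, Fth1, Ftl1, Hfe and Slc11a2, were matched by gene symbol. All 10 were found among 22599 measured symbols, and all 10 passed the filter on low counts. The series compares livers with floxed Ncor1 (flox, labelled WT, n = 3) with livers labelled as NcoR1 knockdown (NcoR1ΔHep, a hepatocyte deletion by its name, n = 3), in a study of ischemia-reperfusion injury. The titles give 0 h for all 6 libraries, although the treatment label of each names liver ischemia-reperfusion, so both groups share that label. The sources used here do not state the driver of the deletion, the age and sex of the animals, or whether each library came from its own mouse. P-values therefore measure the spread between these libraries, which may be technical.

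Hepcidin, the peptide made from Hamp, is secreted mainly by hepatocytes and limits the iron that enters plasma. It binds ferroportin, the product of Slc40a1 and the exporter of cellular iron, and leads to its loss from the cell surface. Hepatocytes raise hepcidin when bone morphogenetic proteins (BMPs) from sinusoidal endothelial cells signal through SMAD factors, with HFE, transferrin receptor 2 and hemojuvelin as helpers, and when interleukin-6 signals through STAT3. Transferrin (Trf) carries iron in plasma, transferrin receptor 1 (Tfrc) takes it up, DMT1 (Slc11a2) moves it across membranes, and the ferritin heavy and light chains (Fth1, Ftl1) store it. In mice a second gene, Hamp2, lies beside Hamp; its product is not known to act on iron as hepcidin does.

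Libraries held 36975231 to 38470468 counts each, and the 10 genes had between 404 counts (Slc11a2 in NcoR1ΔHep 1) and 921184 counts (Trf in NcoR1ΔHep 2). Levels are given as the authors' FPKM, which scales counts by gene length and library total. The 8 hepatocyte markers summed to between 50062 and 57259 FPKM per library, most of it Alb (31817 to 42939 FPKM), and none was at 0. Ncor1 stood at 6.70 to 7.72 FPKM in flox and 4.93 to 6.63 FPKM in NcoR1ΔHep, an edgeR log2 fold change of -0.31 (SE 0.21, adjusted p = 0.931), so the deletion was not established from gene totals. NcoR1ΔHep 1 stood apart from the other 5 libraries in sex-linked transcripts, with 17138 Xist counts against 6 to 18, and 4 Y-linked genes summing to 0.534 CPM (counts scaled to a common library total) against 113 to 271. It was also the lowest in the hepatocyte transcripts Apob (144 FPKM against 270 to 604 FPKM elsewhere) and Cps1 (350 against 629 to 865 FPKM). Both were chosen after their values were seen, and the other hepatocyte markers were divided. NcoR1ΔHep 1 was lowest in Hnf4a (81.2 FPKM) but highest in Ttr (6507 FPKM), Apoa1 (12640 FPKM), Serpina1a (1644 FPKM) and Tat (436 FPKM). For Alb it lay within the range of the others (33762 FPKM). Fold changes that rest on NcoR1ΔHep 1 are therefore given with and without it.

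The control regions of both hepcidin genes are shown because BMP and STAT3 signals raise hepcidin. Over these libraries the log2 levels of Hamp and Hamp2 had r = 0.83. Hamp had a 6.84-fold range and Hamp2 a 45.5-fold range. NcoR1ΔHep 1 was the highest in both (4160 and 4841 FPKM), and no r was computed without it. Reads may also be shared between the paralogs. The part of the control regions in the levels was not tested. The genes sit on chromosome 7, with 18.2 kb between them. In the 250 bases before each annotated start (RefSeq, GRCm38.p6, minus strand, printed 5′ to 3′), capitals mark GGCGCC, the core of the BMP response element, and TTCNNNGAA, the spaced motif bound by STAT factors. Both motifs read the same on either strand.
Hamp chr7:30944030-30944279: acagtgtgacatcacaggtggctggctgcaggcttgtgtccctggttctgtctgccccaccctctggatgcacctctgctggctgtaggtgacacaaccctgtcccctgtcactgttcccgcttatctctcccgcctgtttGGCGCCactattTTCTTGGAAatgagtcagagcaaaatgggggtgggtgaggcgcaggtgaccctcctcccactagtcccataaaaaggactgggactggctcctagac
Hamp2 chr7:30924182-30924431: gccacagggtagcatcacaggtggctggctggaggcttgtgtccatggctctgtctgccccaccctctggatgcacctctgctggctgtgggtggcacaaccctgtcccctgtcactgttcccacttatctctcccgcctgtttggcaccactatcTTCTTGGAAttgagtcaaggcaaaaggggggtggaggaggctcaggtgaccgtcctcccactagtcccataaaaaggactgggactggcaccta
The windows were identical at 227 of 247 aligned positions (91.9%). The STAT motif, TTCTTGGAA in both, began 97 bases before the start of Hamp and 94 before that of Hamp2. GGCGCC began 109 bases before the start of Hamp. The aligned letters in Hamp2 were GGCACC, a change of G4A counted from the first base of the Hamp motif, and no GGCGCC was found elsewhere in the Hamp2 window. Among 32851 RefSeq windows of this length, 9.59% held GGCGCC, 7.02% held TTCNNNGAA and 0.368% held both. Of the 7 genes of the group with a window in the table (all but Trf, Slc40a1 and Slc11a2), Tfrc also held GGCGCC and only Hamp and Hamp2 held TTCNNNGAA; a match describes letters and not binding.

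Hamp and Hamp2 are close enough for reads to be shared, which bears on how their counts were divided. The last 25 codons, which encode the mature hepcidin peptide in Hamp, are printed from GENCODE M21 transcripts, with the bases that differ in capitals.
Hamp: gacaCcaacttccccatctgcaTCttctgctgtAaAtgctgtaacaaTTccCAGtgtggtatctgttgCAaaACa
Hamp2: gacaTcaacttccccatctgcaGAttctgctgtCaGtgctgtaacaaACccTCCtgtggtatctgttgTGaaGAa
These ends differed at 14 of 75 bases, and the whole coding parts were identical at 233 of 249 positions (93.6%). The longest run shared by the transcripts was 87 bases. Of all 50-base windows of the Hamp transcript, 16.6% also occurred in Hamp2, and of all 100-base windows 0%. The sources used here do not state the read length or how reads with several matches were treated, so the level of each paralog carries this uncertainty.

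Several of the other genes carry iron-responsive elements, the hairpins through which iron regulatory proteins block ferritin and ferroportin translation and protect Tfrc mRNA when iron is low. They are shown because through them iron acts on these genes after transcription, and mRNA levels alone then show only part of a response. The search took a C, 5 bases, the loop CAGTGN and 5 bases able to pair with the 5 before the loop, on the transcript strand. The loop is in capitals.
Fth1: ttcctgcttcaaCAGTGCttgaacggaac
Ftl1: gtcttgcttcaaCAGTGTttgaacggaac
Slc40a1: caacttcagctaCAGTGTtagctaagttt
Tfrc first: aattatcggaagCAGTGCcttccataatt
Tfrc last: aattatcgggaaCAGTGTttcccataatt
Fth1, Ftl1 and Slc40a1 each had 1 match in the 5′ untranslated region, and Tfrc had 4 in its 3′ untranslated region. Of 21760 protein-coding genes, 0.129% had a match in a 5′ and 0.584% in a 3′ untranslated region. The other 6 genes, Slc11a2 among them, had none under this strict pairing. An element with another loop or an imperfect stem would be missed, so a gene without a match may still carry one.

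Hamp was among the most abundant liver transcripts and varied widely within each genotype. Its level was 1373, 609 and 975 FPKM in flox 1, 2 and 3, and 4160, 631 and 1837 FPKM in NcoR1ΔHep 1, 2 and 3. NcoR1ΔHep 1 and NcoR1ΔHep 3 lay above every flox library, while NcoR1ΔHep 2 lay near the lowest one, so the groups overlapped. The means were 986 ± 382 and 2209 ± 1794 FPKM (SD, n = 3 each). By edgeR this was a log2 fold change of 1.19 (SE 0.58; 95% interval from -0.15 to 2.53; adjusted p = 0.931). Without NcoR1ΔHep 1 it was 0.49 (SE 0.51, interval -0.72 to 1.70).

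Hamp2 spanned 45.5-fold between its highest and lowest library, a spread at percentile 99.5 of the tested genes. It stood at 516, 499 and 107 FPKM in flox 1, 2 and 3, and at 4841, 106 and 561 FPKM in NcoR1ΔHep 1, 2 and 3. The library with Xist reads was 8.63-fold above the next highest. The low level, near 107 FPKM, was met in 1 library of each genotype, flox 3 and NcoR1ΔHep 2. The log2 fold change of 2.25 (SE 1.17, edgeR adjusted p = 0.931) was -0.0048 (SE 0.85) without NcoR1ΔHep 1. With all 6 libraries it was 1.15 by limma-voom, 1.13 by limma on log2(FPKM + 1) and 1.53 by edgeR with the replicate number as a block. NcoR1ΔHep 1 was the only library with Xist reads and almost no Y-linked reads, and the rest ran from 106 to 561 FPKM in Hamp2. With 1 such library, sex and its other traits cannot be told apart in its Hamp2 level, and this was not tested.

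**Figure D1:**
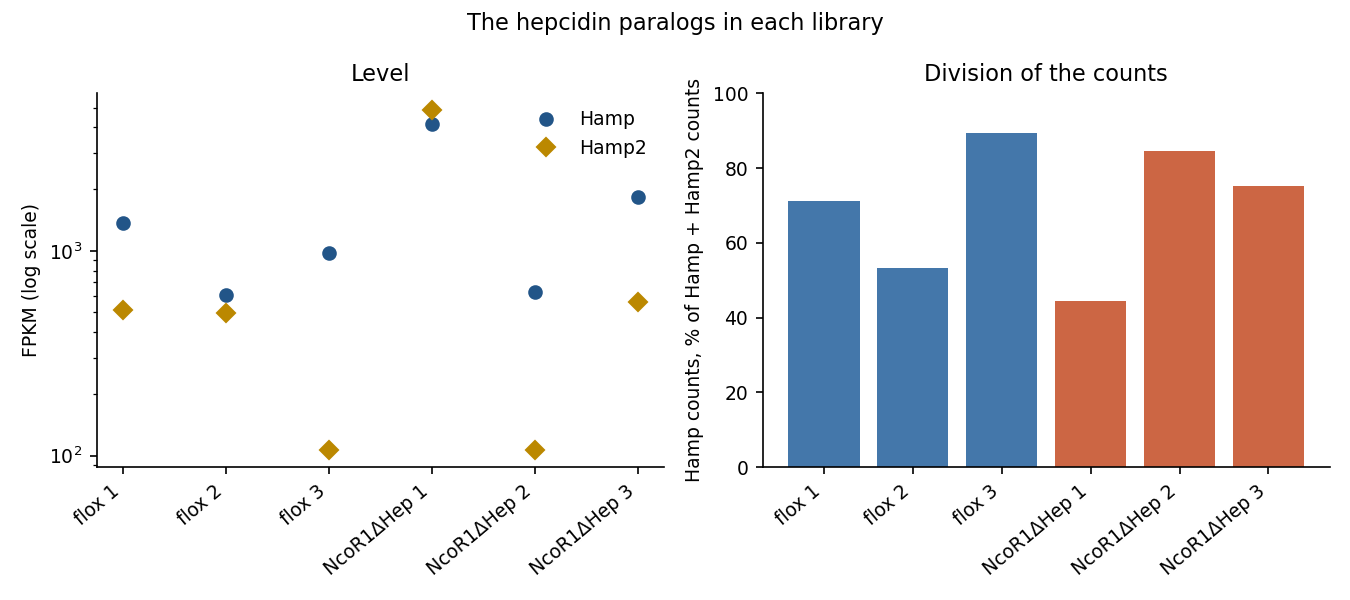
Left, FPKM of Hamp (circles) and Hamp2 (diamonds) in each library on a log axis; right, Hamp counts as a percent of Hamp plus Hamp2 counts, with flox in blue and NcoR1ΔHep in orange. Hamp2 exceeded Hamp in NcoR1ΔHep 1 only, and was near 107 FPKM in flox 3 and NcoR1ΔHep 2.

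The division of counts between the paralogs varied more within each genotype than between them. Hamp took 71.3%, 53.2% and 89.5% of the Hamp and Hamp2 counts in flox 1, 2 and 3, and 44.5%, 84.7% and 75.3% in NcoR1ΔHep 1, 2 and 3. The groups overlapped, with means of 71.3% ± 18.1 and 68.1% ± 21.0 (SD, n = 3 each; exact two-sided permutation p = 0.8, where 0.1 is the smallest that 3 against 3 can give). Without NcoR1ΔHep 1 the difference in means was 8.68 percentage points, against -3.17 with it. Summed, the paralogs gave 1889, 1107 and 1082 FPKM in flox and 9001, 737 and 2398 FPKM in NcoR1ΔHep. The sum had an edgeR log2 fold change of 1.58 (SE 0.74, adjusted p = 0.931), so counting both as 1 gene did not bring a call. Without NcoR1ΔHep 1, a fit chosen after seeing the data, it was 0.36 (SE 0.52).

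The partners that help hepatocytes sense iron differed little between the genotypes. Tfr2, the liver receptor that reads transferrin saturation, was at 75.7, 70.3 and 101 FPKM in flox 1, 2 and 3 and at 76.1, 93.3 and 66.6 FPKM in NcoR1ΔHep 1, 2 and 3. Its 2 highest values belonged to flox 3 and NcoR1ΔHep 2, the libraries lowest in Hamp2. Tfr2 had a log2 fold change of -0.05 (SE 0.24, interval from -0.61 to 0.51, edgeR adjusted p = 0.987).

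Hfe encodes the MHC-like protein whose loss causes hereditary hemochromatosis. Its level was 11.4, 10.3 and 9.87 FPKM in flox 1, 2 and 3 and 7.04, 9.41 and 9.74 FPKM in NcoR1ΔHep 1, 2 and 3. In FPKM the highest NcoR1ΔHep value lay just under the lowest flox value (9.74 against 9.87). This was the sole member without overlap, 1 of 10, where 7.56% of tested genes did not overlap in either direction and 4.95% were without overlap and lower in NcoR1ΔHep. With TMM factors, which also correct for the makeup of a library, NcoR1ΔHep 3 (38.9 CPM) lay above flox 1 and flox 3 (36.8 and 36.01 CPM), so no member was without overlap there (8.82% of tested genes were). The log2 fold change was -0.23 (SE 0.23, edgeR adjusted p = 0.931), or -0.04 without NcoR1ΔHep 1.

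Transferrin was the most abundant transcript of the group, taking 1.37% to 2.47% of all counts in a library. Trf was at 6556, 6477 and 10313 FPKM in flox 1, 2 and 3, and at 5859, 10588 and 6332 FPKM in NcoR1ΔHep 1, 2 and 3. The libraries fell into a high pair, flox 3 and NcoR1ΔHep 2, and 4 libraries at 5859 to 6556 FPKM, with 1 high library in each genotype. The log2 fold change was -0.02 (SE 0.37, edgeR adjusted p = 0.993).

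The same pair was high in transcripts of the acute-phase response. Saa1, a serum amyloid gene induced by inflammation, was at 2427 FPKM in flox 3 and 2092 FPKM in NcoR1ΔHep 2, against 20.7 to 129 FPKM in the other 4 libraries. Hp and Hpx, which encode the hemoglobin and heme scavengers haptoglobin and hemopexin and were chosen after their values were seen, followed it. Hp was at 5963 and 5107 FPKM in that pair against 1504 to 2351 FPKM elsewhere, and Hpx at 6331 and 6127 against 1997 to 2680 FPKM. Hamp itself, which interleukin-6 can induce, was at 975 and 631 FPKM in the pair, below flox 1, NcoR1ΔHep 1 and NcoR1ΔHep 3. The 8 neutrophil markers summed to 22.5 and 12.5 FPKM in the pair and to 3.02 to 7.92 FPKM elsewhere. Most of that sum was S100a8 and S100a9 in every library. Of the 8 markers only 3, these and Ngp, had enough counts to be tested, so the sum says little about the others. Il6 had too few counts to be tested (at most 0.0939 FPKM). The part of the acute-phase response or of neutrophils in the levels of Trf, Tfr2 and Hamp2 was not tested.

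**Figure D2:**
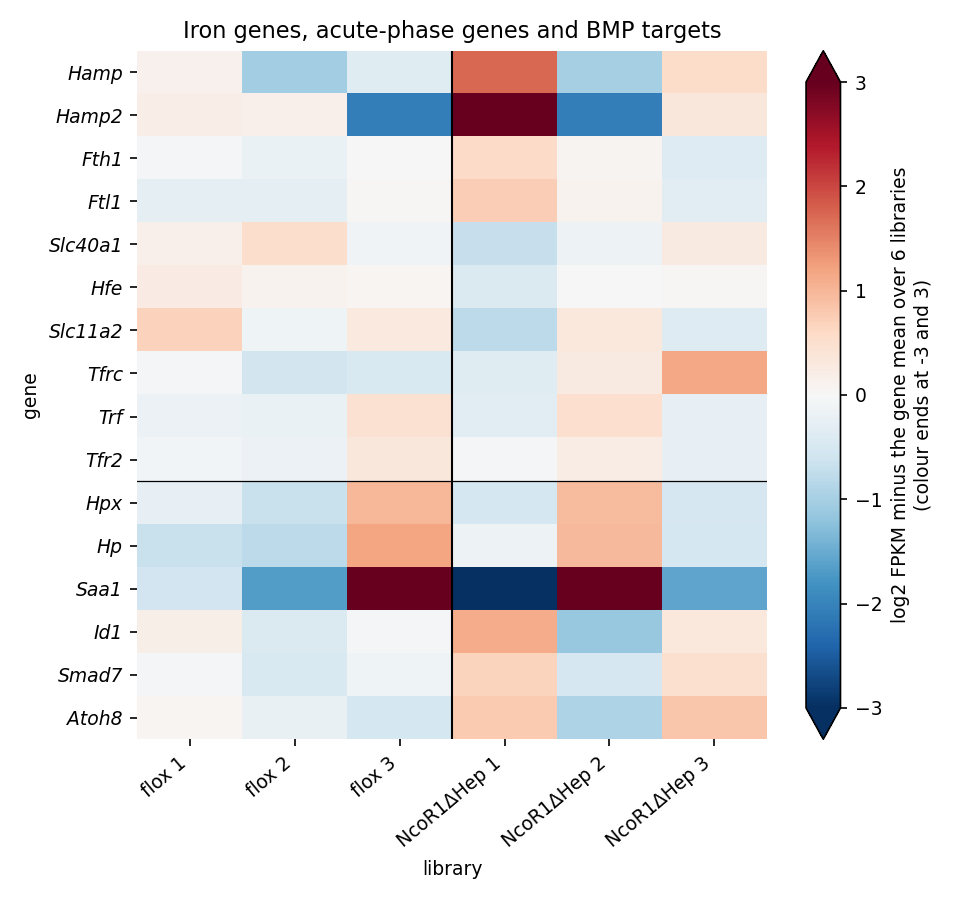
Colour gives log2 FPKM minus the mean over 6 libraries for the 10 iron genes (above the line), 3 acute-phase genes and 3 BMP target genes (below it), by library. Flox 3 and NcoR1ΔHep 2 are high in Trf, Tfr2, Hpx, Hp and Saa1 and low in Hamp2, while NcoR1ΔHep 1 is high in Hamp, Hamp2, Fth1 and Ftl1.

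Ferroportin mRNA was lowest in NcoR1ΔHep 1, the library with the most Hamp mRNA. In NcoR1ΔHep 3, the next highest in Hamp, its level was exceeded only by that of flox 2. A link between these mRNA levels was not tested. Slc40a1 was at 62.1, 79.6 and 51.7 FPKM in flox 1, 2 and 3 and at 34.4, 50.2 and 66.6 FPKM in NcoR1ΔHep 1, 2 and 3. The ranges overlapped, and the log2 fold change was -0.32 (SE 0.34, edgeR adjusted p = 0.931), or -0.05 without NcoR1ΔHep 1. Kupffer cells also express ferroportin. Their 12 markers summed to between 207 and 328 FPKM in flox and between 136 and 346 FPKM in NcoR1ΔHep, with 236 FPKM in NcoR1ΔHep 1. In bulk tissue, fewer cells of a type and less RNA per cell cannot be told apart.

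Tfrc, the general receptor for transferrin-bound iron, was low in liver and highest in NcoR1ΔHep 3. It was at 4.14, 2.87 and 3.10 FPKM in flox 1, 2 and 3 and at 3.28, 5.11 and 9.43 FPKM in NcoR1ΔHep 1, 2 and 3. Replicates 2 and 3 of NcoR1ΔHep lay above every flox library and replicate 1 lay within the flox range. Over all libraries Tfrc had a log2 fold change of 0.90 (SE 0.41, interval from -0.05 to 1.84, edgeR adjusted p = 0.931). Without NcoR1ΔHep 1 it was 1.24 (SE 0.32, interval from 0.48 to 2.003), with an unadjusted edgeR p of 0.00635 and an adjusted p = 0.998. It was the only one of the 10 genes under 0.05 unadjusted in that fit, where 2.43% of tested genes were. Without NcoR1ΔHep 3 the log2 fold change was 0.28. Young red cells carry Tfrc. The summed level of 10 erythroid markers ran from 335 to 479 FPKM in flox and from 289 to 308 FPKM in NcoR1ΔHep, with 308 FPKM in NcoR1ΔHep 3. Most of that sum is globin mRNA. Klf1, a transcription factor of red cell precursors and picked with its values known, had 0.535, 0.652 and 0.971 FPKM in flox 1, 2 and 3 and 2.08, 0.981 and 1.13 FPKM in NcoR1ΔHep 1, 2 and 3. Every NcoR1ΔHep value of Klf1 lay above every flox value, as held for 2.61% of tested genes. Its log2 fold change was 0.94 (SE 0.44, edgeR adjusted p = 0.931). Of the 10 markers, 4 had too few counts to be tested, and of the rest 3 were higher and 3 lower. Beside Klf1, Hba-a1 and Hba-a2 were higher (log2 fold changes 0.11 and 0.21). Alas2, Hbb-bs and Hbb-bt were lower (-0.58, -0.48 and -0.52). Alas2 was at 4.17 FPKM in NcoR1ΔHep 1, against 33.9 to 47.5 FPKM elsewhere. The part of red cell precursors in the Tfrc level was not tested.

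Slc11a2 encodes DMT1, the transporter that carries ferrous iron across endosomal and apical membranes. It was the least abundant of the 10 genes, at 4.78, 2.70 and 3.58 FPKM in flox 1, 2 and 3 and at 1.71, 3.66 and 2.24 FPKM in NcoR1ΔHep 1, 2 and 3. The groups overlapped, with a log2 fold change of -0.49 (SE 0.32, edgeR adjusted p = 0.931). Without NcoR1ΔHep 1 the value was -0.23 (SE 0.26).

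Both ferritin chains were highest in NcoR1ΔHep 1. Fth1, the heavy chain with ferroxidase activity, was at 1282, 1170 and 1355 FPKM in flox 1, 2 and 3 and at 1991, 1410 and 1017 FPKM in NcoR1ΔHep 1, 2 and 3. Ftl1, the light chain, was at 1971, 1993 and 2436 FPKM in flox and at 3962, 2588 and 1887 FPKM in NcoR1ΔHep. For both chains NcoR1ΔHep 1 was the highest and NcoR1ΔHep 3 the lowest of all 6 libraries, so in FPKM the NcoR1ΔHep libraries enclosed the flox ones. With TMM factors they did so for Fth1, while for Ftl1 flox 1 was the lowest (1720 CPM against 2032 CPM in NcoR1ΔHep 3). The log2 fold changes were 0.21 (SE 0.26) for Fth1 and 0.39 (SE 0.30) for Ftl1 (edgeR adjusted p = 0.938 and 0.931). They were 0.02 and 0.15 without NcoR1ΔHep 1. The 1 ferritin pseudogene row in the count table, Ftl1-ps2, held at most 5 counts in a library, and adding it left the Ftl1 log2 fold change at 0.39.

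The ratio of light to heavy chain, which does not depend on library scaling, was higher in each NcoR1ΔHep library. Ftl1 over Fth1 in FPKM was 1.54, 1.70 and 1.80 in flox 1, 2 and 3 and 1.99, 1.84 and 1.85 in NcoR1ΔHep 1, 2 and 3. The groups did not overlap, but flox 3 and NcoR1ΔHep 2 differed by little. The means were 1.68 ± 0.131 and 1.89 ± 0.0839 (SD, n = 3 each; exact two-sided permutation p = 0.1, the smallest this design can give), so the test could not pass 0.05. Without NcoR1ΔHep 1 the difference in means was 0.17, against 0.21 with it.

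**Figure D3:**
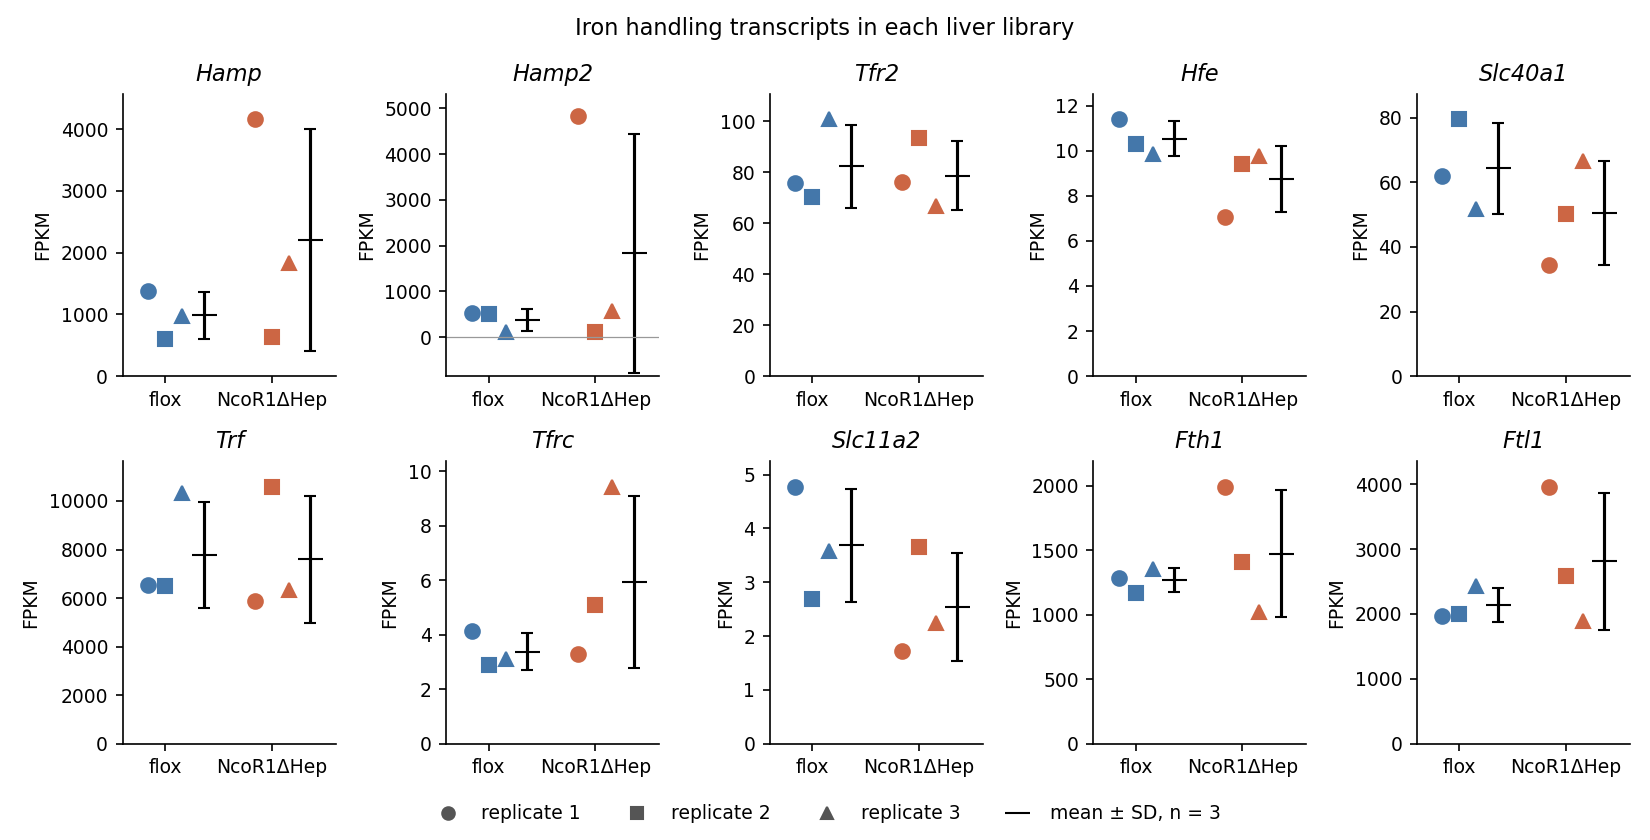
FPKM of each of the 10 genes by genotype, 1 point per library (circle, square and triangle for replicates 1, 2 and 3), with the mean and SD of 3 libraries in black and linear axes; where the SD bar passes below 0, a grey line marks 0. The NcoR1ΔHep 1 circle is the highest point for Hamp, Hamp2, Fth1 and Ftl1 and the lowest for Slc40a1, Hfe, Slc11a2 and Trf.

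Levels ordered the group into abundant secreted and storage products and less abundant receptors, transporters and Hfe. By mean FPKM over 6 libraries Trf (7687) was followed by Ftl1 (2473), Hamp (1598), Fth1 (1371) and Hamp2 (1105). The ranges of Hamp, Fth1 and Hamp2 overlapped across libraries, and each also overlapped Ftl1. Within each library Ftl1 stood above Fth1 (1.54 to 1.99 times its level), while the places of Hamp and Hamp2 changed between libraries. Tfr2 (80.5) and Slc40a1 (57.4) overlapped each other and stood above Hfe (9.63), Tfrc (4.66) and Slc11a2 (3.11). Across libraries the range of Tfrc overlapped those of both its neighbours, while Hfe and Slc11a2 did not overlap. Within each library Hfe stood above Tfrc, by little in NcoR1ΔHep 3 (9.74 against 9.43 FPKM). Tfr2 was far above Tfrc in every library, with Tfrc at 3.08% to 5.47% of the Tfr2 level in 5 libraries and at 14.2% in NcoR1ΔHep 3.

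None of the 10 genes passed the edgeR test at an adjusted p of 0.05, where 0% of 13205 tested genes did. None had an unadjusted edgeR p under 0.05, where 3.35% of tested genes did. DESeq2 called none of the 10 (5 genes in all, 0.0246% of 20289), and put 2, Hamp and Tfrc, under 0.05 unadjusted, where 3.02% of its tested genes were. With edgeR and no count filter there were 3, Hamp, Hamp2 and Tfrc (3.4% of tested genes), and with upper-quartile factors 1, Tfrc (3.34%). Without NcoR1ΔHep 2 there were 3, Hamp, Hamp2 and Slc11a2 (log2 fold changes 1.62, 2.79 and -0.82), where 5.7% of tested genes were. All 3 had an edgeR adjusted p = 0.777 there, and none of the genes passed the adjusted test in any of these fits. Of the 10, 5 were higher and 5 lower in NcoR1ΔHep, with a median log2 fold change of 0.09 against 0.03 over all tested genes. Without NcoR1ΔHep 1, 6 were higher and 4 lower, with a median of 0.03.

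**Figure D4:**
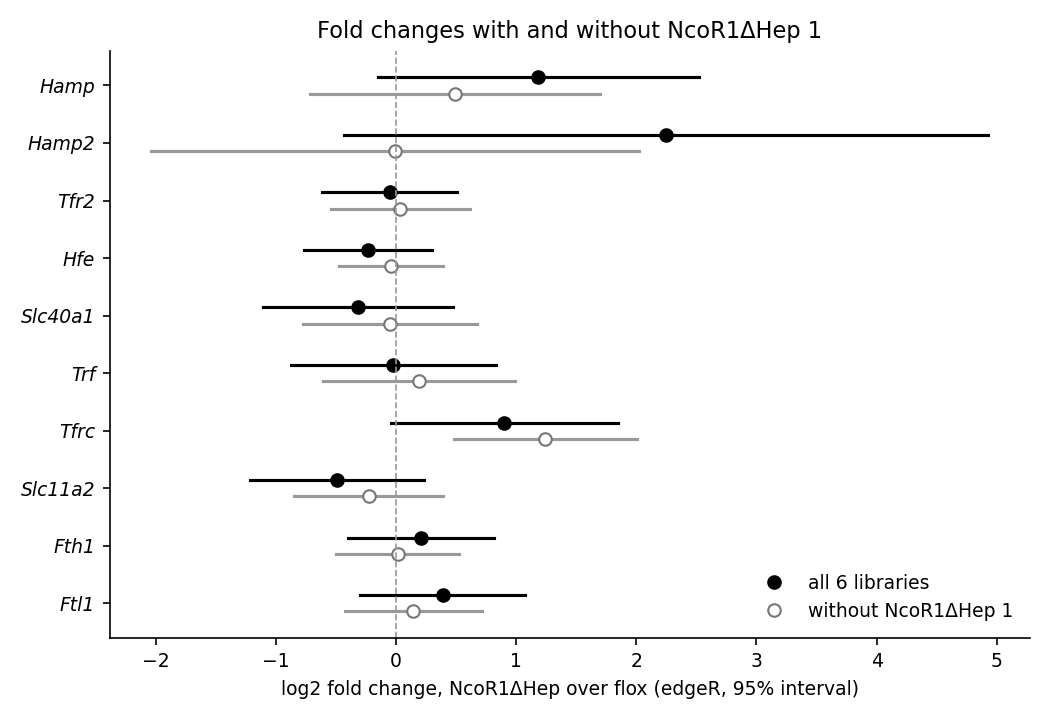
edgeR log2 fold change of NcoR1ΔHep over flox for each gene, with its 95% interval, from all 6 libraries (filled) and without NcoR1ΔHep 1 (open). With all 6 libraries every interval includes 0, and without NcoR1ΔHep 1 the interval of Tfrc runs from 0.48 to 2.003 while Hamp2 moves from 2.25 to -0.0048.

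The BMP and SMAD genes that control hepcidin showed no common direction. Of 24 tested genes 12 were higher and 12 lower, 0 passed the adjusted edgeR test, 0 had an unadjusted p under 0.05, and the median log2 fold change was 0.00. Over all tested genes 53.5% were higher and the median was 0.03. Bmp6 and Bmp2, the endothelial ligands that drive hepcidin, were at 0.382 to 1.27 and 2.19 to 6.02 FPKM in flox and at 0.555 to 0.962 and 1.80 to 4.53 FPKM in NcoR1ΔHep. Both were highest in flox 1 and next in NcoR1ΔHep 1. Among markers of the sinusoidal endothelium, all 12 were lower in NcoR1ΔHep (median log2 fold change -0.76, or -1.08 without NcoR1ΔHep 1), and their summed level was 176, 64.6 and 99.4 FPKM in flox 1, 2 and 3 and 103, 59.6 and 42.7 FPKM in NcoR1ΔHep 1, 2 and 3. Of these markers 3 had an unadjusted edgeR p under 0.05, where 3.35% of tested genes did, and none was at 0. The part of endothelial content in the ligand levels was not tested.

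Hjv, which encodes the BMP co-receptor hemojuvelin, was at 34.8 to 35.7 FPKM in flox and at 47.9, 39.5 and 32.8 FPKM in NcoR1ΔHep 1, 2 and 3. Tmprss6, the protease that trims hemojuvelin and holds hepcidin down, was at 136, 118 and 125 FPKM in flox 1, 2 and 3. In NcoR1ΔHep 1, 2 and 3 it was at 86.3, 134 and 93.2 FPKM. The lowest Tmprss6 values were thus those of NcoR1ΔHep 1 and NcoR1ΔHep 3, the libraries highest in Hamp. The next lowest was that of flox 2, the library lowest in Hamp (609 FPKM). The part of Tmprss6 in the Hamp level was not tested. Smad1, a transducer of BMP signals, and Smad9 had the smallest p-values of the list, with log2 fold changes of 0.42 (SE 0.22) and -0.82 (SE 0.42). Neither passed (edgeR adjusted p = 0.931 for both).

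The transcriptional targets of BMP signalling did not share 1 pattern. Id1 was at 7.15, 4.66 and 6.06 FPKM in flox 1, 2 and 3 and at 13.6, 2.86 and 7.83 FPKM in NcoR1ΔHep 1, 2 and 3. Smad7, a feedback inhibitor of the pathway, was at 1.39, 1.06 and 1.33 FPKM in flox and 2.31, 1.03 and 2.03 FPKM in NcoR1ΔHep. Atoh8, picked with its values known, had 4.33, 3.57 and 2.87 FPKM in flox and 7.10, 2.16 and 7.36 FPKM in NcoR1ΔHep. In each of these 3 genes NcoR1ΔHep 1 and NcoR1ΔHep 3 were the top libraries and NcoR1ΔHep 2 the lowest. The log2 fold changes, 0.46 for Id1, 0.53 for Smad7 and 0.67 for Atoh8, had unadjusted edgeR p-values of 0.358, 0.144 and 0.167. Without NcoR1ΔHep 1 they were -0.0065, 0.41 and 0.56. Id2 and Id3, targets named after their values were seen, did not follow. Id2 was at 183, 120 and 102 FPKM in flox 1, 2 and 3 and at 56.3, 79.0 and 121 FPKM in NcoR1ΔHep 1, 2 and 3, so NcoR1ΔHep 1 was the lowest. Id3 was highest in flox 1, at 43.9, 19.1 and 26.4 FPKM in flox and 36.3, 16.7 and 31.1 FPKM in NcoR1ΔHep.

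Genes of the interleukin-6 and STAT3 route were lower in 14 of 18 (median log2 fold change -0.31). Without NcoR1ΔHep 1 they divided 9 and 9, with a median of -0.02. None passed the adjusted edgeR test or the DESeq2 test, and 1 had an unadjusted edgeR p under 0.05, where 3.35% of tested genes did. That gene was Il6st, which encodes the shared receptor chain gp130, at 26.8, 13.7 and 12.6 FPKM in flox 1, 2 and 3 and 8.92, 9.05 and 7.70 FPKM in NcoR1ΔHep 1, 2 and 3 (log2 fold change -0.9995, SE 0.27, edgeR adjusted p = 0.931). Every NcoR1ΔHep value of Il6st lay below every flox value, as held for 4.95% of tested genes. Il6ra, the ligand-binding chain, was at 2.13 to 4.64 FPKM in flox and 1.77 to 3.08 FPKM in NcoR1ΔHep. Stat3 was at 17.2 to 21.3 FPKM in flox and at 10.3, 17.6 and 12.2 FPKM in NcoR1ΔHep 1, 2 and 3. Socs3, the feedback inhibitor, was at 0.599 to 2.43 FPKM in flox and 1.38 to 2.61 FPKM in NcoR1ΔHep.

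Of the 8 genes of the iron regulatory protein group, 5 were higher and 3 lower (median log2 fold change 0.08), with 0 called and 0 under 0.05 unadjusted by edgeR. Aco1 and Ireb2, which encode the iron regulatory proteins that bind iron-responsive elements, had log2 fold changes of -0.18 (SE 0.21) and 0.01 (SE 0.49). The flox libraries 1, 2 and 3 had Ireb2 levels of 14.1, 20.6 and 8.25 FPKM. For NcoR1ΔHep, in the same order of replicates, the Ireb2 levels were 9.03, 10.1 and 22.7 FPKM. NcoR1ΔHep 3, the library highest in Tfrc, was also highest in Ireb2. The next highest in Ireb2, flox 2, was the lowest of all libraries in Tfrc (2.87 FPKM). Ncoa4, the receptor that delivers ferritin for breakdown, was at 16.8, 10.7 and 11.1 FPKM in flox and at 2.54, 9.96 and 8.72 FPKM in NcoR1ΔHep. Its level in NcoR1ΔHep 1, the library highest in both ferritin chains, was the lowest. The next lowest was in NcoR1ΔHep 3, the library lowest in both chains in FPKM (1017 FPKM for Fth1 and 1887 FPKM for Ftl1). Pcbp1, a chaperone that loads iron into ferritin, was at 99.6 to 108 FPKM in flox and at 144, 119 and 115 FPKM in NcoR1ΔHep 1, 2 and 3. Neither Ncoa4 nor Pcbp1 passed (log2 fold change -0.79, SE 0.48, and 0.31, SE 0.20; edgeR adjusted p = 0.931 for both), and without NcoR1ΔHep 1 they were at -0.36 and 0.28.

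Other carriers of iron and heme were lower in 12 of 16 tested genes (median log2 fold change -0.21, or 10 of 16 and -0.10 without NcoR1ΔHep 1). By edgeR 0 were called and 1 was under 0.05 unadjusted, where 3.35% of tested genes were. That gene was Lrp1, the receptor that clears heme bound to hemopexin, at 45.8, 36.9 and 34.0 FPKM in flox 1, 2 and 3 and at 21.4, 28.6 and 21.8 FPKM in NcoR1ΔHep 1, 2 and 3 (log2 fold change -0.67, SE 0.23, edgeR adjusted p = 0.931). Cp, which encodes the ferroxidase ceruloplasmin, was at 223 to 240 FPKM in flox and at 104, 232 and 231 FPKM in NcoR1ΔHep 1, 2 and 3, and its log2 fold change of -0.23 was 0.11 without NcoR1ΔHep 1. Abcg2, a transporter that can export porphyrins, was also lowest in NcoR1ΔHep 1, at 22.4 to 32.8 FPKM in flox and 8.62, 20.7 and 21.5 FPKM in NcoR1ΔHep (log2 fold change -0.57, or -0.21 without NcoR1ΔHep 1). Slc39a14, the importer of iron that is not bound to transferrin, was at 13.2 to 20.1 FPKM in flox and 11.7 to 16.3 FPKM in NcoR1ΔHep.

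Enzymes that make and break heme were divided evenly, with 7 of 14 higher and a median log2 fold change of -0.02. None was called and 0 had an unadjusted edgeR p under 0.05. Alad, the second enzyme of the pathway, was at 14.0 to 19.3 FPKM in flox and at 37.7, 17.9 and 18.4 FPKM in NcoR1ΔHep 1, 2 and 3, and Blvrb, a biliverdin reductase, at 40.9 to 65.2 FPKM and at 121, 60.4 and 45.1 FPKM. Their log2 fold changes of 0.57 and 0.54 were 0.23 and 0.12 without NcoR1ΔHep 1. Hmox1, the inducible heme oxygenase, was at 6.30 to 12.3 FPKM in flox and 5.66 to 10.3 FPKM in NcoR1ΔHep. Iron-sulfur cluster assembly genes were higher in 10 of 15 (median log2 fold change 0.06), with 0 called. By edgeR 1, the cochaperone gene Hscb, was under 0.05 unadjusted, where 3.35% of tested genes were. Hscb was at 2.29 to 2.87 FPKM in flox and at 5.92, 4.60 and 2.84 FPKM in NcoR1ΔHep 1, 2 and 3 (log2 fold change 0.76, SE 0.32, edgeR adjusted p = 0.931; 0.58 without NcoR1ΔHep 1). Ciapin1, of the cytosolic branch, had 0.52 (SE 0.25).

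Among the 9062 other genes with a mean of at least 1 FPKM, those most like each paralog over the 6 libraries were found by Pearson correlation of log2(FPKM + 1). For Hamp they were Utp11 (r = 0.998), Fam219b (0.98), Hsd17b10 (0.98), Ptpn2 (0.98) and Zfp395 (0.98). For Hamp2 they were Proser1 (r = 0.99), Zbp1 (0.99), Sms (0.99), Sult1a1 (0.98) and Sult5a1 (0.98), and Sult1a1 was at 113 FPKM in NcoR1ΔHep 1 against 35.9 to 57.3 FPKM elsewhere. For Tfrc they were Arl6ip6 (r = 0.99), Sfr1 (0.98), Galm (0.96), Asb7 (0.93) and Utp18 (0.93), all highest in NcoR1ΔHep 3. These values describe 6 libraries, share library and depth, and carry no test. Between the members, log2 levels of Fth1 and Ftl1 had r = 0.96, Trf and Tfr2 0.91, Hamp and Hamp2 0.83, and Slc40a1 and Ftl1 -0.94, over the same 6 libraries. No r was computed without NcoR1ΔHep 1, the highest library in Hamp, Hamp2, Fth1 and Ftl1 and the lowest in Slc40a1 and Trf.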

How the data were processed

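Bulk RNA from 6 liver libraries was sequenced after extraction with a Qiagen column kit and library making with a SMARTer mRNA kit, per the labels' protocols. The deposited count table holds whole-number counts per gene symbol with no normalization, and the authors' FPKM table scales the same counts by gene length and library total, per the values in the files. GRCm38, mm10 and hg38 are builds listed, with no role, in the submitters' processing notes. Aligner, counter and strandedness: not given in the sources used here.

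Genes were filtered with filterByExpr (minimum count 10, minimum total 15; 13205 of 22599 kept), scaled by TMM and compared with edgeR 4.0.16 quasi-likelihood tests in R 4.3.3. Tests were two-sided, and p-values were Benjamini-Hochberg adjusted over all tested genes at 0.05. Standard errors come from the F statistic. DESeq2 1.42.0 and limma 3.58.1 served as alternatives. The tests were tried on simulated data. Ratios were compared by exact permutation. The genes and lists were chosen with earlier results of these data known. Genes named are the 10 members, the 2 smallest p-values of each list, a set of best known regulators and the 5 most similar genes to Hamp, Hamp2 and Tfrc; others are said to be chosen after their values were seen. Promoter windows come from RefSeq and transcripts from GENCODE M21, matched by symbol. Replicate numbers were not a term, since no label ties them to a litter or day.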

Additional observations from a re-analysis of the deposited data

How the results depend on the processing

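No setting called any of the 10 genes. The count over all tested genes was 0 by edgeR with all libraries and in every alternative except DESeq2, which called 5. Hamp, Tfrc, Slc40a1, Fth1, Ftl1, Hfe and Slc11a2 kept their direction under all alternatives. Leaving out 1 library at a time gave log2 fold changes of 0.49 to 1.62 for Hamp and 0.28 to 1.24 for Tfrc, the ends being the fits without NcoR1ΔHep 1 and NcoR1ΔHep 2 for Hamp and without NcoR1ΔHep 3 and NcoR1ΔHep 1 for Tfrc. It gave -0.0048 to 2.79 for Hamp2, -0.18 to 0.14 for Tfr2 and -0.32 to 0.25 for Trf, which changed sign, and Trf was at 0.0066 with upper-quartile factors; the cause was not tested. With all libraries Hamp2 ranged from 1.13 by limma on FPKM to 2.34 with upper-quartile factors, against 2.25. The difference in the Hamp share ran from -12.2 to 8.68 percentage points, against -3.17 with all libraries. Leaving out 1 library gave median log2 fold changes of -0.21 to 0.36 for the iron regulatory protein genes and 0.021 to 0.14 for the iron-sulfur cluster genes. The same-numbered libraries did not deviate together (r = 0.02, -0.33 and -0.47); with the replicate number as a block 0 genes were called, and 175 genes against 443 had an unadjusted p under 0.05. The smallest count of any of the 10 genes in a library was 404.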
